A study of Mus musculus with 4 samples.

Results

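The 2 parts of the Hist1 cluster on mouse chromosome 13 were covered by 746 of the 415814 probes of a DNA methylation tiling array. The members were chosen by position alone, as probes that start between 21.8 and 22.14 Mb (part 1, 269 probes) or between 23.54 and 23.88 Mb (part 2, 477 probes) of build mm9. No measured value entered this rule, but it was set with earlier results of these data known. The arrays carried DNA from livers of C57BL/6J mouse fetuses collected on gestation day 18. In the food restricted group, pregnant dams were given 50% of the chow that the control group ate, from gestation day 10 to 17, whereas control dams ate freely. Each group was 1 pool of liver DNA labelled N = 6, and the sources used here do not say whether these were fetuses or litters. Whole liver was pooled, and the liver label was not checked against marker genes because the files give probes by position without gene names.

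The Hist1 cluster holds most of the replication-dependent histone genes of the mouse, which supply histones while DNA is copied in S phase. H2A, H2B, H3 and H4 form the core of the nucleosome, and the linker histone H1 binds DNA at its entry and exit. These genes are short, lack introns, and exist in many near-identical copies, so that a probe in a coding part can bind DNA of more than 1 copy, which was not tested. Methylation of CpG sites at a promoter is, in general, a mark of silent genes. The fetal liver is a site of blood formation with many dividing cells.

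The layout of the cluster was taken from RefSeq annotation of a later build (GRCm38.p6), used for names, order and promoter sequence only, and no gene was placed on a probe. That the mm9 windows hold these genes is the label's statement and was not checked here. RefSeq lists 56 histone genes on chromosome 13, of which 54 are protein coding and 2 are pseudogenes. They comprise 6 H1, 15 H2A, 15 H2B, 9 H3 and 11 H4 genes. A first group of 24 genes ends with H2bc11, and a second group of 32 genes begins with H4c8. Between the groups lie 147 other genes, and 75 of these belong to the Vmn1r family of pheromone receptors of the vomeronasal organ, with 36 protein coding members and 39 pseudogenes.

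Promoter sequence was matched by symbol for 51 of the histone genes, as 52 windows of the 250 bases before the transcript start. Because methylated DNA immunoprecipitation reads CpG density as well as methylation, CpGs were counted in each. The histone promoters held a median of 9 CpGs (range 2 to 27), against 6 (range 0 to 56) over all 32851 RefSeq promoters of the same length and 1 (range 0 to 4) over 33 Vmn1r promoters. By family the median was 11 for H1, 10 for H4, 8 for H2B, 7 for H2A and 6 for H3. The sequences of both extremes are shown first: H4c1 (chr13:23761250-23761499, minus strand), which encodes a core H4, with 27 CpGs, and H2bc3 (chr13:23746484-23746733, plus strand), which encodes a core H2B, with 2, as many as H4c2. H1f4 (chr13:23622559-23622808, minus strand), a linker histone of somatic cells, held 19, and H1f6 (chr13:23695561-23695810, plus strand), the linker histone of testis, held 10. Vmn1r191 (chr13:22179583-22179832, minus strand) is a receptor gene at its family's median. All positions here are on GRCm38.p6 and cannot be set against the mm9 positions given for probes. Capitals mark CpGs.
H4c1: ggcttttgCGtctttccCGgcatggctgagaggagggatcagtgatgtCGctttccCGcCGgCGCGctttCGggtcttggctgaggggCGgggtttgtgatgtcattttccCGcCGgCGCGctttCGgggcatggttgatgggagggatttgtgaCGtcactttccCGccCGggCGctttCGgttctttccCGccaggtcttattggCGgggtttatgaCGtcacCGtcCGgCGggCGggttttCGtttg
H2bc3: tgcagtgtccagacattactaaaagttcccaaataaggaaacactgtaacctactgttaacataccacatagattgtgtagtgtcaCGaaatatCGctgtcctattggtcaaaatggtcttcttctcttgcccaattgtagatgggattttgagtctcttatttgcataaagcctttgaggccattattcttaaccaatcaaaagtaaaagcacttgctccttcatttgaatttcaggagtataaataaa
H1f4: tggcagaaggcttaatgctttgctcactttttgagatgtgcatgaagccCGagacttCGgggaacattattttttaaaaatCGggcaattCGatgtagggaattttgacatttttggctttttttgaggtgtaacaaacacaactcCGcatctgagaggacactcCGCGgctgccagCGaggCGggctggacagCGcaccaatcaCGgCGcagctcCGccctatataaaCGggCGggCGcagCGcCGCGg
H1f6: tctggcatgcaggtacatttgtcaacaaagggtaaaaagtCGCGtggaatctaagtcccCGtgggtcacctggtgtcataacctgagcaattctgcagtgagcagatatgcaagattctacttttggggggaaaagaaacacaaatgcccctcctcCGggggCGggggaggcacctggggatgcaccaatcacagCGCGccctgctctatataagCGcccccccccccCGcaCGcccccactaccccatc
Vmn1r191: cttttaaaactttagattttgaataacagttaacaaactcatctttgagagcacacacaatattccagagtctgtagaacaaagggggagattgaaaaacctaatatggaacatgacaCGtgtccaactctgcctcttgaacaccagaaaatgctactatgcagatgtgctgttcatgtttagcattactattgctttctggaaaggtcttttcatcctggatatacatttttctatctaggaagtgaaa
H4c1 carries its CpGs along the whole window, those of H1f4 mostly crowd towards the transcript start, and H2bc3 is rich in A and T.

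The histone promoters also share short sequences. The letters TATAAA, the TATA box, were found on either strand in 26 of the 52 windows (50.0%), against 12.4% of all promoters and 18.2% of the Vmn1r promoters. CCAAT was found in 44 (84.6%), against 33.8% of all promoters and 33.3% of the Vmn1r promoters, and only 3 of the 11 H4 windows held it. The octamer ATTTGCAT, the recognition sequence of POU factors such as Oct1, was found in 11 windows (21.2%), 5 of H2A and 6 of H2B genes, against 1.60% of all promoters and 9.09% of the Vmn1r promoters. It was in none of the 24 H1, H3 and H4 windows. None of these motifs contains another, and both strands were searched for each. H2bc8 (chr13:23571150-23571399, plus strand, GRCm38.p6) is shown as an example, with the octamer in capitals.
H2bc8: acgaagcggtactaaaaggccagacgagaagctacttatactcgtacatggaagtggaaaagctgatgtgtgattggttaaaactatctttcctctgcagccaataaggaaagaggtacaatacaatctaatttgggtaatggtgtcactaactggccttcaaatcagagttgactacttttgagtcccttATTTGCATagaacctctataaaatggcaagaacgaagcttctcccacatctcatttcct
A match of letters describes these windows and was not tested as a binding site, and array values could not be placed on any of them.

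Methylated DNA was immunoprecipitated from each pool (IP) and hybridised with total DNA of the same pool (reference) on 2-colour arrays, once on each of 2 slides. Slide 1 carried the IP in Cy5 and slide 2 in Cy3. M is log2 of IP over reference signal minus the array's median, so 0 is the array's typical probe and 1 a ratio 2 times as high. It is not a percentage of methylated cytosines. Within each slide, M of the control array was taken from M of the food restricted array to give D. The 4 arrays are technical repeats of 1 pool per group, so no test was run, and differences are set against the spread between arrays. Precision was limited by these 4 arrays and by dim IP signal. The share of Hist1 probes with an IP signal well above background was 43.7% and 42.2% on the control arrays and 57.9% and 57.2% on the food restricted arrays, against 72.2%, 72.0%, 79.9% and 80.6% over all probes. The reference signal was well above background at 92.8% to 97.2% of Hist1 probes, and no Hist1 probe was saturated. On both slides each pool had a fixed array position, so position and pool cannot be told apart.

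The probes of the Hist1 cluster lay in islands. In each part, 9 groups of probes were separated by gaps of more than 5000 bp, with a median spacing of 184 bp in part 1 and 175 bp in part 2 and a largest gap of 111 kb and 54.9 kb. Neighbouring probes (at most 500 bp apart) were joined into regions of at most 2000 bp and at least 3 probes, each given the median of its probes. This gave 98 Hist1 regions of 56653 on the array, 37 in part 1 and 61 in part 2, with a median of 7 probes. They held 719 of the 746 probes. Probes of a region share DNA fragments and are not replicates.

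Most Hist1 regions had a low IP ratio in both pools. Median M over the 98 regions was -1.21 and -1.30 on the control arrays and -1.09 and -1.16 on the food restricted arrays (slides 1 and 2), and -1.29 and -1.17 after averaging the arrays of a pool. Over the 2015 other regions of chromosome 13 the medians lay between -0.30 and -0.25 on the 4 arrays. The difference was -0.92 ± 0.085 (SD, n = 4 arrays), with every array between -1.04 and -0.84, so it exceeded the spread between arrays on each of them. Of the Hist1 regions, 78 (79.6%) had M below 0 on all 4 arrays, against a background of 45.8% of all regions on the array. M was below -1 on all 4 arrays in 46 (46.9%), 13 of 37 in part 1 and 33 of 61 in part 2, against a background of 14% of all regions. When the IP probes that were not well above background were left out, 40 Hist1 regions remained, and their median M was 0.39 (control) and 0.22 (food restricted), a difference of -0.37 from the other regions of chromosome 13 filtered alike.

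The low level did not end at the borders of the histone windows towards the inside. The interval between the parts, which held 512 probes in 67 regions, had median M of -1.27, -1.14, -1.23 and -1.07 in the order control and food restricted on slide 1, then on slide 2. The Hist1 median minus that of the interval was 0.06, 0.05, -0.07 and -0.09, so its sign differed between slides. Outside the cluster the level was higher. Over 1 Mb beyond part 1 the 63 regions had medians from -0.52 to -0.31, and over 1 Mb beyond part 2 the 38 regions had medians from -0.16 to 0.13, neither overlapping the Hist1 values.

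The interval and the histone windows had a similar median ratio with different signal. The IP signal was well above background at 29.1% and 28.5% of interval probes on the control arrays. On the food restricted arrays it was at 43.8% and 43.9%. Each share was lower than that of Hist1 on the same array, and the part of dim signal in the likeness of M was not tested. On the scale of log2 IP signal centred per array, the Hist1 median was -1.72 and -1.66 in the control pool and -1.59 and -1.50 in the food restricted pool, whereas the interval lay lower, from -2.42 to -1.99. The log2 reference signal, treated alike, was -0.38 to -0.34 in Hist1 and -0.93 to -0.72 in the interval. The other regions of chromosome 13 had medians of -0.40 to -0.37 for IP and -0.17 to -0.15 for the reference. The Hist1 windows thus lay below the chromosome in IP by more than 1 log2 unit on each array, and by much less in the reference.

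The parts differed little from each other. Median M of part 1 was -1.18 and -1.10 in the control pool and -0.97 and -1.03 in the food restricted pool. Part 2 had -1.22 and -1.42 in the control pool and -1.18 and -1.23 in the food restricted pool. Part 1 was higher on each array, by 0.05, 0.32, 0.21 and 0.20 in that order, a mean of 0.19 ± 0.11 (SD, n = 4 arrays). With the IP channel alone the sign turned (-0.09). With another background correction (normexp), which adds 50 scanner units to each signal, the difference was -0.01. The order of the parts thus depends on the processing.

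Single probes covered a wide range within these low windows. Mean M over the 4 arrays ran from -2.84 to 4.48 in part 1 (SD 1.33 over probes) and from -2.93 to 4.02 in part 2 (SD 1.31). Of all Hist1 probes, 58 (7.77%) were above 1 and 506 (67.8%) below 0 on all 4 arrays, against 27.2% and 41.5% of all probes. Adjacent probes up to 250 bp apart correlated at r = 0.73 over 542 pairs, which share arrays and DNA fragments, against 0.85 over 285551 pairs on the whole array, a description without a test. At the level of regions, M was above 1 on all 4 arrays in 5 of 98 (5.10%), 2 in part 1 and 3 in part 2, against a background of 25.3% and 22.1% of the other regions of chromosome 13. On single arrays the share was 7.14%, except for the food restricted array of slide 2 with 5.10%.

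The 3 regions of part 2 with M above 1 on all 4 arrays lay at 2 places, and these held 14 and 6 of the 37 probes of part 2 that were above 1 on all 4 arrays. The others lay singly or in pairs elsewhere. At chr13:23787254-23788696, a region of 11 probes, M was 2.78 and 2.58 on the control arrays and 3.11 and 2.92 on the food restricted arrays. The adjoining region chr13:23785787-23786994 (7 probes) had 1.78 and 1.82 in the control pool and 1.90 and 2.20 in the food restricted pool. All 4 arrays were high at both, and the pools differed by at most 0.38 on either slide. Along the stretch, mean M rose from -0.10 at the probe that starts at 23785787 to 4.02 at 23786943, and then fell to 0.62 at 23788637 and to -1.50 at 23789564. The next region, chr13:23789564-23790958, began 868 bp after the end of the enriched one and had mean M of -1.31, a step of -4.10 and -4.21 on the control arrays and -4.31 and -4.02 on the food restricted arrays. Both edges of the stretch were seen on all 4 arrays.

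The other enriched place of part 2 was chr13:23679677-23681230 (7 probes), with M of 2.27 and 2.18 in the control pool and 2.50 and 2.55 in the food restricted pool. The region 199 bp before it, chr13:23677899-23679478, had mean M of -1.76, although its last 2 probes were at -1.74 and 1.14. The first probe of the enriched region was at 1.38, so the rise began inside the left region. The step between the region medians was 3.98, 4.32, 4.30 and 3.97 on the control arrays and then the food restricted arrays. This step and the one at the right edge of the first place, each over 4 log2 units on average, were picked by size. They are the 2 largest among the 63 pairs of neighbouring Hist1 regions at most 1000 bp apart, whose median step was 0.56. Only 6 of these pairs had a step over 2. The next highest regions of part 2, chr13:23802929-23804163 and chr13:23583274-23584201, had mean M of 0.31 and 0.34.

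In part 1 the highest region was chr13:21922100-21922784, which had only 3 probes. Its M was 3.41 and 3.16 in the control pool and 3.47 and 3.46 in the food restricted pool, and its probes had mean M of 4.48, 3.38 and 1.69. The first of these differed between pools by 2.38 on slide 1 and 0.84 on slide 2, whereas the other probes differed by at most 0.30. The region chr13:21881321-21882588 (8 probes) had 2.05 and 1.90 in the control pool and 1.83 and 2.17 in the food restricted pool, so its pools overlapped. Its left neighbour chr13:21879811-21881221 (9 probes) was lower, with 0.70 and 1.09 in the control pool and 0.40 and 0.79 in the food restricted pool. Over the 17 probes of this pair mean M rose from -1.40 to 2.18 at the probe that starts at 21881163, fell to 0.23 at 21881671, and rose again to 3.14 at 21882088.

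The remaining high regions of part 1 were mixed. At chr13:22100548-22101640 (7 probes) M was 1.24 and 0.85 in the control pool and 1.17 and 0.91 in the food restricted pool. At chr13:22124767-22125835 (6 probes) it was 1.29 and 1.48 in the control pool and 1.00 and 0.76 in the food restricted pool. The control pool was higher there on both slides. Its probes ranged from -1.10 to 3.78, and only 3 of 6 had an IP signal well above background on each array, so that the median falls between dim and bright probes.

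At the low end, the deepest regions of part 2 were chr13:23672796-23674439, with M of -2.21 and -2.37 in the control pool and -1.93 and -1.93 in the food restricted pool, and chr13:23642514-23644034, with -1.97 and -2.03 against -1.85 and -2.30. The other named low regions of part 2, chr13:23644122-23645441, chr13:23714364-23715440 and chr13:23663789-23664962, had mean M from -1.99 to -1.85. In part 1 the lowest was chr13:22128175-22129568, with -2.20 and -2.39 in the control pool and -1.98 and -1.81 in the food restricted pool. It was followed by chr13:21873417-21874706 (mean M -1.93), chr13:21878180-21879343 (-1.83), chr13:22133449-22135037 (-1.74) and chr13:22129778-22130948 (-1.71). All 10 were dim in the control pool, meaning that most of their probes had no IP signal well above background on either of its arrays. Their M is therefore a measured value near the lower limit of the IP channel, and their order was not settled by these arrays.

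Neighbouring regions of part 1 also differed. The difference of region medians from chr13:22124767-22125835 to chr13:22126078-22126974 was -2.75 on average, but the fall lay inside the first region, whose last probe was at -1.10, while the next probe was at -0.56. From chr13:21878180-21879343 to chr13:21879811-21881221 it was 2.58, with -2.12 and -1.40 at the adjacent probes. From chr13:22133449-22135037 to chr13:22135656-22136987 it was 2.26, with -1.59 and 0.14 at the adjacent probes. At the left edge of the enriched stretch of part 2 it was 2.72, with -0.54 and -0.10.

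Food restriction was compared with the control diet on each slide. D over the 98 regions had a median of 0.14 on slide 1 and 0.18 on slide 2, against 0.04 and 0.09 over all regions. After averaging the slides the median was 0.22, against 0.06 over all regions. In the authors' deposited value table, 2 of the 4 columns hold each other's scanner file, and with the pools assigned by its columns the median was -0.03. These columns are the food restricted array of slide 1 and the control array of slide 2. By the scanner files followed here, that D is slide 2 minus slide 1 within each pool, so it does not measure a pool difference. With another background correction (normexp, which adds 50 scanner units to each signal) the median D was 0.0058. The median background-subtracted IP signal of Hist1 probes was 9.82 to 22.8 on the 4 arrays, below that offset. Ratios of dim probes are thus drawn towards 0 by construction in this setting. D was above 0 on both slides in 49 regions (background 39.1% of all regions), below 0 on both in 13 (background 23.7%), and of mixed sign in 36. The parts did not keep an order, since part 1 had 0.22 and 0.15 and part 2 had 0.12 and 0.29 on slides 1 and 2. D of the 2 slides correlated at r = 0.18 over the 98 regions, which share arrays and pools, against 0.34 over all regions.

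The shift came with a difference in signal strength between the arrays. Of the Hist1 regions, the control pool had 49 (50.0%) dim ones and the food restricted pool 24 (24.5%), with 23 dim in both. Over all regions these shares were 16.9% and 9.51%. Median background-subtracted IP signal of Hist1 probes was 12.5 and 9.82 on the control arrays and 22.8 and 15.4 on the food restricted arrays, in scanner units, against 39.1, 29.5, 63.2 and 43.8 over all probes. Hist1 regions with mean M below -1 had median D of 0.23 and 0.34 (57 regions), and all regions that low had 0.25 and 0.27 (14115 regions). The part of dim signal in D was not tested beyond these values.

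A difference was called where both slides gave the same sign and a size of 0.5 or more, which is a ratio of 1.41. By this rule the food restricted pool was higher in 7 Hist1 regions (7.14%, against a background of 4.55% of all regions), 4 in part 1 and 3 in part 2. None was lower (background 0.643%), and 2 passed the size with opposite signs (background 0.717%). Among the 57 low regions 4 were called higher (7.02%, background 9.17% of regions that low). By single probes 81 were higher (10.9%, background 9.85%), 25 lower (3.35%, background 2.48%) and 60 of opposite sign (8.04%, background 3.84%). The share of probes called higher was thus near the background, and regions as low as most of Hist1 were called no less often over the whole array. Slide 1 alone gave 17 higher and 7 lower regions (background 12.4% and 4.49%), and slide 2 alone 27 and 2 (background 13.8% and 3.75%). The calls depend on the processing. With each array centred on its densest value of M in place of its median there was 1 higher (background 1.76%) and 1 lower region (background 1.96%). With normexp there were 0 higher (background 2.72%) and 0 lower (background 0.0018%). The size of 0.5 was kept there, although the added offset draws ratios of dim probes towards 0. With the pools assigned by the value table's columns, 0 were higher (background 2.52%) and 1 was lower (background 1.03%). By the scanner files, that last setting compares slides within a pool. Mean D of the 7 regions was above 0 in 5 with normexp and in 4 with the value table's columns.

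Of the 7 called regions, 3 were not dim in either pool by the rule above. At chr13:21842868-21843297 (4 probes) M was -0.35 and -0.33 in the control pool and 0.40 and 0.67 in the food restricted pool. D was 0.75 and 1.00. Only 2 and 1 of the 4 probes had an IP signal well above background on the control arrays. With dim IP signals raised to the lowest signal well above background on their array, the ratio was 1.24-fold higher. Dim signals were raised in both pools, so this is not a lower bound. At chr13:23802929-23804163 (7 probes) M was -0.38 and 0.26 in the control pool and 0.54 and 0.81 in the food restricted pool, with D of 0.91 and 0.55. Only 3 of its 7 probes had an IP signal well above background on each control array, and with dim signals raised alike the ratio was 1.21-fold higher. Without probes of dim reference signal, however, its mean D was -0.095. In both regions the pools did not overlap, and food restriction went with a higher IP channel, by 0.36 and 0.55 in the first and by 0.35 and 0.34 in the second. The reference channel was higher too, by 0.02 and 0.08 in the first and by 0.36 and 0.13 in the second. At chr13:23831258-23831647 (3 probes, none dim) M was -1.62 and -2.05 in the control pool and -1.04 and -1.51 in the food restricted pool. The pools again did not overlap, but in all 3 regions the call itself fixes the order of the pools within a slide. D was 0.58 and 0.54, a 1.48-fold higher ratio, while the IP channel was higher by 0.35 on slide 1 and not on slide 2. With the pools assigned by the value table's columns its mean D was -0.45, which by the scanner files compares slides within a pool.

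The other 4 called regions were dim in the control pool. At chr13:23835219-23836771 (9 probes, 6 dim in the control pool) M was -1.17 and -1.23 against -0.58 and -0.34 in the food restricted pool. D was 0.59 and 0.89, and with dim IP signals raised in both pools as above the ratio was 1.33-fold higher. At chr13:21845764-21847508 (9 probes, 7 dim) M was -1.71 and -1.51 against -1.19 and -0.97, and at chr13:21827481-21827841 (3 probes) it was -1.64 and -1.81 against -0.97 and -1.12. Both had D between 0.52 and 0.69, but no fold is given because with dim IP signals raised the ratio was under 1. At chr13:21808730-21809514 (5 probes), which was dim in both pools, M was -1.92 and -1.98 against -1.41 and -1.35, with D of 0.50 and 0.63. Within a slide the call itself requires the control array to be lower. Across slides, both control arrays also lay below both food restricted arrays in all 4 regions.

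A region just outside the threshold, chr13:21841435-21842080, had D of 0.48 and 0.60 and lay 788 bp before the called region at 21842868. The regions of opposite sign were chr13:22126078-22126974, with D of -0.64 and 0.92, and chr13:23623435-23624569, with -0.65 and 1.01.

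No Hist1 region was lower by the rule on both slides, and the largest negative differences were smaller on at least 1 slide. At chr13:23627777-23628118 (3 probes) M was -0.99 and -1.60 in the control pool and -1.56 and -2.06 in the food restricted pool, with D of -0.57 and -0.46, just outside the threshold, and all 3 probes were dim in both pools. At chr13:23841044-23842933 (11 probes) M was 0.30 and -0.04 in the control pool and -0.66 and -0.38 in the food restricted pool. D was -0.96 and -0.35 there, the pools did not overlap, and 6 of 11 probes were dim in the control pool. D was -0.29 and -0.72 at chr13:22124767-22125835, -0.55 and -0.27 at chr13:23856013-23857729, and -0.30 and -0.30 at chr13:21879811-21881221. The first and last of these are among the 5 highest regions of part 1, but neither had M above 1 on all 4 arrays. The regions of part 1 that did had D of 0.06 and 0.30 (chr13:21922100-21922784) and of -0.23 and 0.27 (chr13:21881321-21882588). Both enriched places of part 2 had D above 0 on both slides (0.34 and 0.34 at chr13:23787254-23788696, 0.23 and 0.37 at chr13:23679677-23681230).

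The profile of the cluster was otherwise alike in both pools. M over the 98 regions correlated at r = 0.94 and 0.93 between the pools of slides 1 and 2, and at 0.93 and 0.95 between the slides of the control and the food restricted pool, values that share DNA and are given without a test. The median absolute difference between the arrays of a pool was 0.26 for both. It has no sign, so it cannot be set against the median D, in which opposite signs cancel. Each single channel was centred per array and compared as food restricted minus control on slides 1 and 2. The median difference was 0.05 and 0.09 for the IP signal, against -0.14 and -0.13 over all regions. For the reference signal it was 0.09 and 0.15, against 0.07 and 0.08. The IP difference of Hist1 thus lay above that of all regions on both slides, with the opposite sign, and the reference difference lay above it by less.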

How the data were processed

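DNA methylation was measured in 2 pools of fetal liver DNA (control and food restricted, grouped by the titles) on 4 two-channel Agilent arrays, 2 per pool with the dyes exchanged. Agilent Feature Extraction 10.5.1.1 read the scans, per the submitters' processing notes. Per the file headers, the deposited processed intensity is background-subtracted and scaled by a dye factor within the array, a surrogate stands in for signals too dim to measure, which bears on low ratios, and positions are on mm9. The sources used here do not name the antibody. Quality flags were used as deposited. Of 415814 probes, 65 with outlier flags were left out.

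M was computed as log2 of IP over reference processed signal, centred on the array median, and D within each slide, with Python 3.11.15, numpy 2.4.6 and pandas 2.3.3. The alternatives used R 4.3.3 and limma 3.58.1. The steps were tested on simulated data. The deposited value table holds log2 ratios, and 2 of its 4 columns hold each other's scanner file. The scanner files were followed, since their red and green channels match the titles. In each part the 5 highest and the 5 lowest regions were named, with every called region and the 5 largest D of each sign. Members, lists and rules were chosen with earlier results of these data known. With 1 pool per group no test was run.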

Additional observations from a re-analysis of the deposited data

How the results depend on the processing

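Hist1 regions lay below the rest of chromosome 13 in every setting run: the difference was -0.25 with normexp, -0.45 with loess, -0.37 without dim IP probes, -1.24 with the IP channel alone, and -0.97 to -0.87 without slide 1 or 2. Counts of calls are set against 7 higher and 0 lower regions, with the share of all regions in the same setting in brackets. There were 1 and 1 with the densest value as centre (1.76% and 1.96%), and 0 higher with normexp (2.72%). Loess (8.53% and 0.418%) and quantile normalization (1.18% and 1.03%) each gave 2 and 1. So did the running median of D taken off (1.07% and 0.988%) and the IP channel alone (3.33% and 1.72%). Without dim IP probes 2 of 40 were higher (3.90%), and with at least 5 probes 4 of 86 (4.34%). D taken across slides, with no slide block, gave 4 and 1 (3.96% and 0.44%). Pools by the titles of the value table gave 0 and 1 (2.52% and 1.03%). With windows narrowed by 50 kb 1 of 55 was higher (4.55%) and 0 were lower (0.643%). With windows widened by 100 kb 8 of 132 were higher (4.55%) and 3 were lower (0.643%). A call at 1 gave 0 higher (0.192%), and a call at 0.3 gave 20 and 3 (12.2% and 2.68%). Without slide 1 or 2 there were 17 to 27 higher (12.4% to 13.8%) and 2 to 7 lower (3.75% to 4.49%).

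Median D (0.22) became 0.30 without centring, 0.054 with the densest value, 0.0058 with normexp, 0.062 with loess, 0.026 with quantile normalization, 0.0059 with the running median taken off, 0.046 without dim IP probes, 0.14 with means over probes, 0.18 with at least 5 probes, 0.18 with regions of at most 1000 bp, 0.093 with the IP channel alone, -0.030 with the value table's titles, 0.18 with narrowed and 0.16 with widened windows, and 0.14 to 0.18 without slide 1 or 2. Centring moved all regions as well, whose median D was 0.06, 0.15 without centring and -0.10 with the densest value.

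Median M in the control and the food restricted pool (-1.29 and -1.17) became -1.52 and -1.32 without centring, -0.20 and -0.24 with the densest value, -0.25 and -0.31 with normexp, -0.52 and -0.48 with loess, -1.19 and -1.28 with quantile normalization, 0.39 and 0.22 without dim IP probes, -1.15 and -1.04 with means, -1.78 and -1.55 with the IP channel alone, -1.18 and -1.23 with the value table's titles, and -1.15 and -1.08 with widened windows. It was -1.38 without dim reference probes and -1.37 with regions of at most 1000 bp in the control pool. Without slide 1 or 2 it ranged from -1.30 to -1.21 and from -1.16 to -1.09.

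The percentage of regions with M above 1 (7.14 and 6.12) became 16.3 and 14.3 with the densest value, 2.04 and 4.08 with normexp, 8.16 and 9.18 with loess, 25.0 and 27.5 without dim IP probes, 8.39 in both with regions of at most 1000 bp, 9.09 in both with narrowed windows, 12.1 and 11.4 with widened windows, 10.2 and 12.2 at a level of 0.5, and 3.06 and 4.08 at a level of 2. In the control pool it was 6.12 without centring, with quantile normalization, with means and with the IP channel alone, 6.25 without dim reference probes and 6.98 with at least 5 probes. The difference between the parts (0.19) was -0.011 with normexp, 0.35 without dim IP probes and -0.095 with the IP channel alone.

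Mean D of called regions turned negative in 6 cases: at chr13:21808730-21809514 with normexp (-0.012) and with the value table's titles (-0.0032), at chr13:21845764-21847508 with normexp (-0.081), at chr13:23802929-23804163 without dim reference probes (-0.095), and with the value table's titles at chr13:21827481-21827841 (-0.16) and chr13:23831258-23831647 (-0.45). The filter on dim IP probes leaves fewer regions by construction. The 50 scanner units that normexp adds draw ratios of dim probes towards 0 by construction. The cause of the other changes was not tested. Dim IP signal limits the order of the lowest regions.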

Other observations

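The 27 probes that belonged to no region held values of their own. At the probe that starts at chr13:23578983 (mm9), M was 2.27 and 1.93 in the control pool and 2.08 and 2.04 in the food restricted pool, and at chr13:23632473 it was 2.21 and 1.82 against 2.27 and 2.05. At chr13:23666265 it was 1.59 and 1.47 against 1.63 and 1.64. All 3 probes lie in part 2, were high on all 4 arrays, and were chosen after their values were seen.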
